A study of Mus musculus with 4 samples.

Results

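The interleukin receptor chains are the membrane proteins through which leukocytes read interleukins. Here they are the 29 genes whose symbol starts with Il, 1 or 2 digits and r. Il1r2, Il1rn, Il1rap, Il3ra, Il5ra, Il6ra and Il18rap match the same pattern but were left out of the set by name. Each gene is represented by 1 probe set, the one with the highest mean over the arrays, out of 52 probe sets that carry a member's symbol alone. The array annotation used here gave 18193 genes such a probe set. Il2rg, Il1rl1, Il23r and Il11ra1 are not analysed here.

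The levels come from CD11b+ splenocytes of mice put through repeated social threat (labelled HighThreat) and of control mice (labelled LowThreat), with 2 pools in each group. A pool combined the RNA of 5 mice and was read on 1 Affymetrix MOE430 2.0 array. Strain, sex, age and any allele are not given in the sources used here, and no label names a batch, so that batch and group cannot be told apart. Pooling hides the spread between mice. An SD below is the spread between pools, and an SE combines that spread with the one typical of probe sets at a similar level. The values are log2 expression from RMA, deposited per probe set, and fold changes are social threat minus control on that scale with the SE of the limma fit.

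Most interleukin receptors are built from a chain that binds the ligand and a chain shared with other receptors. Class I and class II cytokine receptors have no enzyme of their own and signal through bound JAK kinases and STAT transcription factors. Receptors of the IL-1 and IL-17 families signal instead through the adaptors MyD88 and Act1. In the spleen, T, B and NK cells depend on the cytokines of the common gamma chain, whereas neutrophils, monocytes and macrophages respond to IL-1, IL-4, IL-10, IL-13 and IL-17.

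Itgam, which encodes the CD11b used for isolation, stood at 11.64 and 11.59 in the social threat pools, against 10.47 and 11.01 in the control pools, and rose by 0.88 (SE 0.13, limma adjusted p = 0.0015). Over all probe sets, Pearson's r was 0.9981 within social threat and 0.9966 within control, and 0.9894 to 0.9904 across the groups. Array medians ran from 4.41 to 4.43. RMA gives no detection call, so a probe set near or below that level cannot be separated from background, and 13 of the 29 chains had a mean under it. Levels of different probe sets are not comparable as amounts of RNA, and each is compared here between groups.

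The comparison asked which of these receptors differ in these cells between social threat and control. Of the 29 chains, 5 fell, namely Il7r, Il2rb, Il21r, Il10ra and Il27ra. Il18r1 and Il17ra rose. A chain was called at an adjusted p under 0.05 in limma, with adjustment over all 45037 probe sets. The 7 called chains are 24.1% of 29, and among all genes read the same way 21.1% were called, so the share of chains that changed was near the background. By direction, 2 chains rose where 9.40% of all genes did, and 5 fell where 11.7% of all genes did. The median log2 fold change was -0.04 over the 29 chains and -0.02 over all genes. Pools of the groups did not overlap for 16 chains, 10 with both social threat pools below both control pools and 6 with them above, in a table where this held for 58.2% of all genes. None of the 13 chains with a mean under the median array level was called in limma, and of all genes under that level 2.27% were called. Of the 16 brighter chains, 7 were called (43.8%), and of all genes at or above that level 33.3%, which is given as a description. Without social threat pool 1 the chains called were Il7r, Il2rb and Il10ra, and without social threat pool 2 they were these 3 with Il18r1 and Il17ra.

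**Figure D1:**
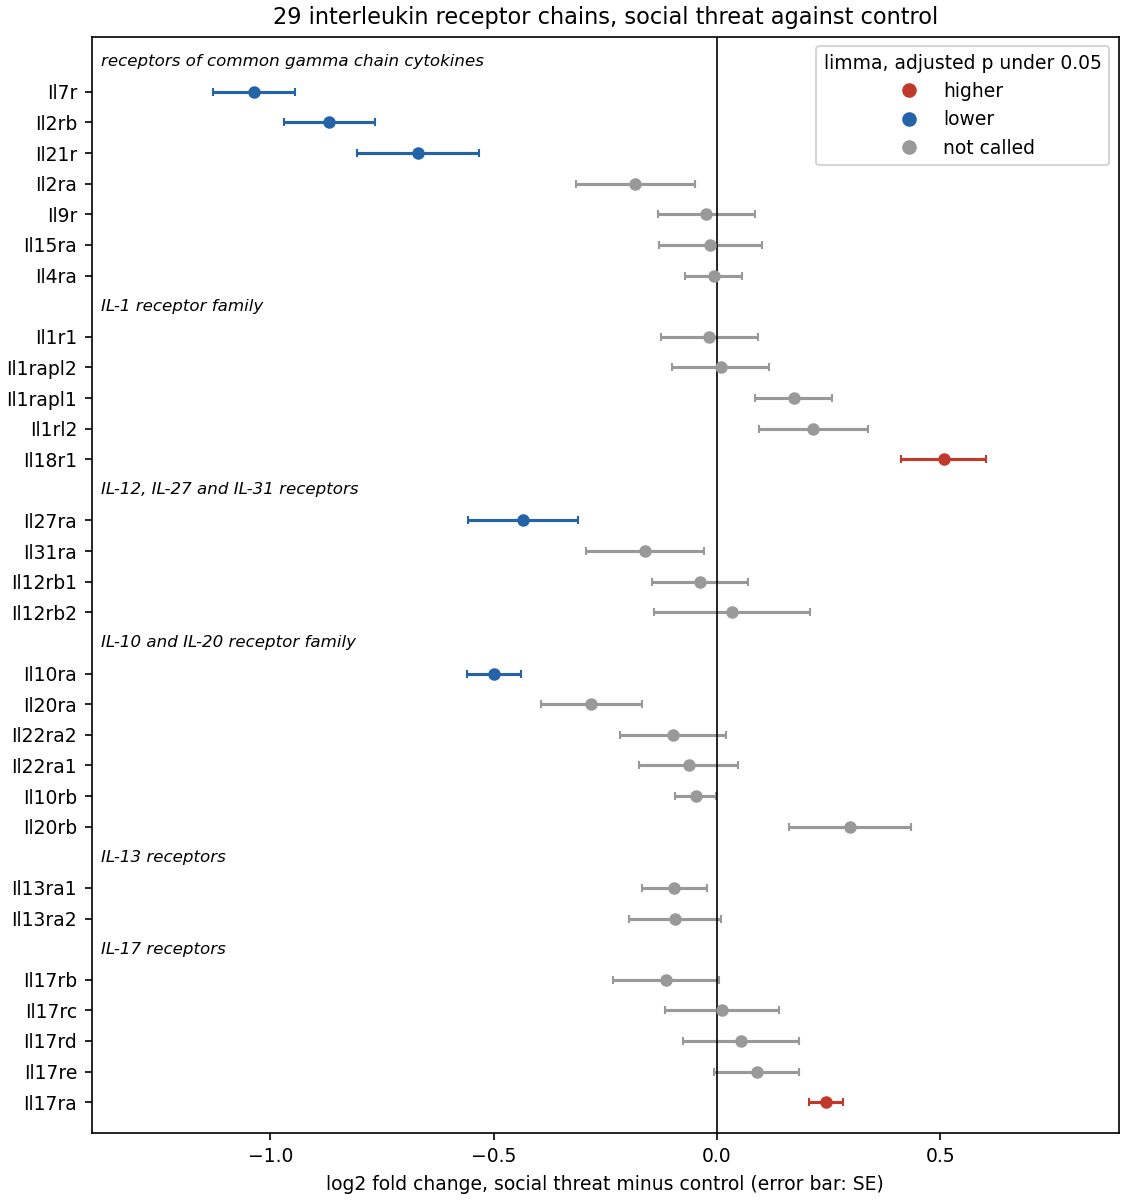
Log2 fold change (social threat minus control, horizontal axis) of the 29 chains, ordered by receptor family, with the SE as error bar; colours give the limma call at an adjusted p under 0.05. Il7r, Il2rb and Il21r lie farthest to the left, between -1.04 and -0.67, and Il18r1 lies farthest to the right at 0.51.

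Receptors of common gamma chain cytokines held 3 of the 5 falls. Of 7 measured, Il7r, Il2rb and Il21r fell and none rose, with a median of -0.18. These are 42.9% of the 7, where 11.7% of all genes fell, which is given as a description. Only 2 of the 7 had a mean under the median array level. Of the 11028 genes at or above that level, 2054 fell. Il7r encodes the alpha chain of the IL-7 receptor, through which lymphocytes receive a survival signal. It stood at 6.89 and 6.76 in the social threat pools, against 7.91 and 7.82 in the control pools. The groups lay about a full log2 unit apart and the pools of each group lay close together. Il7r averaged 6.83 ± 0.09 in social threat and 7.86 ± 0.06 in control (SD, n = 2 each) and fell by 1.04 (SE 0.09, limma adjusted p = 5.81e-05), a 2.05-fold lower level. A dimmer probe set of Il7r also fell, with 5.11 and 5.14 in social threat pools, against 5.83 and 6.001 in control pools (-0.79, SE 0.12, limma adjusted p = 0.00154).

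Il2rb encodes the beta chain that the receptors for IL-2 and IL-15 share, and it is carried by NK cells and memory T cells. It stood at 5.90 and 5.99 in the social threat pools, against 6.84 and 6.79 in the control pools. The pools did not overlap, and Il2rb fell by 0.87 (SE 0.10, limma adjusted p = 0.00035), a 1.82-fold lower level. Its other probe set fell by 0.80 (SE 0.11). Il7r and Il2rb were the 2 members with more than 1 probe set for which every probe set was called. Il21r, whose product binds IL-21, a cytokine of helper T cells that acts on B and NK cells, stood at 7.41 and 7.38 in the social threat pools, against 7.83 and 8.31 in the control pools. Here the control pools were spread more widely than the lower of them was separated from social threat. Il21r fell by 0.67 (SE 0.14, limma adjusted p = 0.00864), with adjusted p = 0.076 without social threat pool 1 and 0.0882 without social threat pool 2. Without control pool 2, the higher one, the log2 fold change was -0.43.

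The bases before the start sites of Il7r and Il21r are shown because these are the fallen genes whose windows were used here, from RefSeq on GRCm38.p6, 250 bases each and written 5′ to 3′ along the gene's strand. Il2rb, Il10ra, Il27ra and Il17ra are not shown. Capitals mark matches to any of 6 short motifs searched on both strands: GAGGAA (PU.1), TGTGGT (Runx), TTCNNNGAA (STAT), AGAACA (glucocorticoid receptor), TGANTCA (AP-1) and TGACGTCA (CREB).
Il7r, chr15:9529877-9530126, minus strand: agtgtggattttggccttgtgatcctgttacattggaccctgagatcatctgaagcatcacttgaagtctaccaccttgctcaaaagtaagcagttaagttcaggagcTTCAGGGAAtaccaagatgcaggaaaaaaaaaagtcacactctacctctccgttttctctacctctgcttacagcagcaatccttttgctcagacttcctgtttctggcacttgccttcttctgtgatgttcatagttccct
Il21r, chr7:125603179-125603428, plus strand: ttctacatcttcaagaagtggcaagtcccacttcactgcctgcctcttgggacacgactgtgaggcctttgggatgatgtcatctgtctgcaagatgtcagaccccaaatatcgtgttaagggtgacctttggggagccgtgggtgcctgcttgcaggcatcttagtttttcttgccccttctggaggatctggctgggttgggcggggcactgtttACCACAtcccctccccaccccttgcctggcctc
The Il7r window held 1 STAT match, from 142 to 134 bases before the start, and the Il21r window held 1 Runx match on the reverse strand, from 33 to 28 bases before it. Of 27025 genes with such a window, 7.18% held the STAT motif and 14.2% the Runx motif. Of the 29 chains, 22 had a window, and among these 3 held the STAT motif, 3 Runx, 6 PU.1 (23.1% of all genes), 2 the glucocorticoid receptor motif (16.2%), 4 AP-1 (6.87%) and 0 CREB (1.62%). The matches are letters in a sequence and were not tested as binding sites.

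The other chains of this family were not called. Il4ra, the alpha chain of the receptors for IL-4 and IL-13, stood at 8.82 and 8.79 in the social threat pools, against 8.83 and 8.79 in the control pools. The values interleave, and the log2 fold change was -0.01 with a 95% interval from -0.15 to 0.14 (limma adjusted p = 0.967). Il4ra and Il21r are neighbours on chromosome 7 with no protein-coding gene between them in RefSeq's GRCm38.p6. Il15ra, which presents IL-15 to cells that carry Il2rb, stood at 5.78 and 5.93 in social threat pools, against 5.83 and 5.92 in control pools (-0.01, SE 0.11). Its dimmer probe set had both social threat pools above both control pools but was not called (0.24, SE 0.12, limma adjusted p = 0.271). Il2ra, the high-affinity alpha chain known as CD25, and Il9r lay under the array median in every pool, at 3.30 to 4.23. A dimmer probe set of Il2ra gave -0.40 (SE 0.12), just short of a call at limma adjusted p = 0.0505.

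Markers of lymphocytes moved in the same arrays. All 11 measured T cell markers fell, with a median log2 fold change of -1.003, and the log2 of their summed levels was 9.66 to 9.70 in social threat pools, against 10.64 to 10.71 in control pools. Of 9 NK cell markers 5 fell and 0 rose (median -0.48, summed level 10.54 to 10.63 in social threat and 11.22 to 11.34 in control). B cell markers fell for 8 of 9 and rose for 0 (median -1.11, summed level 11.05 to 11.12 in social threat and 12.14 to 12.17 in control). Conventional dendritic cell markers fell for 8 of 9 (median -0.90, summed level 11.11 to 11.20 in social threat and 12.37 to 12.39 in control). None of these T, NK and B cell markers had a mean under the median array level, and RMA values have no 0. Of the other marker lists, plasmacytoid dendritic cell genes fell for 5 of 6, eosinophil genes for 2 of 4 and stromal genes for 2 of 7, with 0 rises. Erythroid genes rose for 6 of 8 and fell for 0. Monocyte genes rose for 3 and fell for 3 of 8, basophil and mast cell genes for 1 and 1 of 7, and innate lymphoid cell genes for 1 and 1 of 5. Beside all these lists, the share called was 21.1% of all genes and 33.3% of genes at or above the median array level. Single markers ranged from -1.71 to -0.44 in the T cell list, from -1.34 to 0.20 in the NK cell list and from -1.47 to -0.01 in the B cell list. The part of these cells in the falls of Il7r, Il2rb, Il21r, Il10ra and Il27ra was not tested. In pooled RNA, fewer cells of a type, less RNA per cell and a different purity of the CD11b isolation cannot be told apart.

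**Figure D2:**
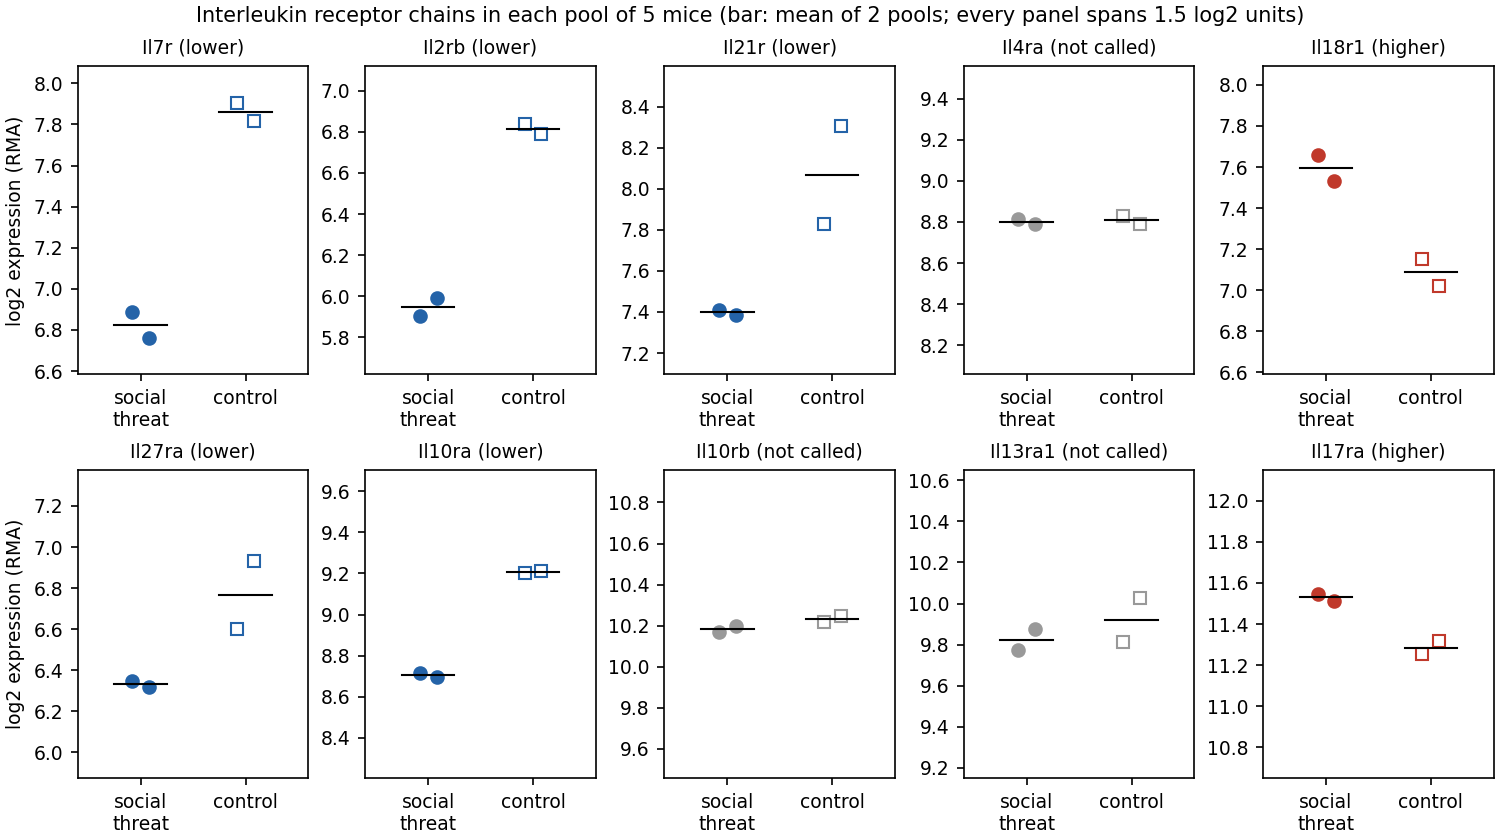
Log2 expression in each pool for the 7 called chains and for Il4ra, Il10rb and Il13ra1, the uncalled chains with a mean of at least 8; filled circles are social threat pools, open squares control pools, bars the mean of 2 pools, and every vertical axis spans 1.5 log2 units. Il10ra has pools that nearly coincide within each group, whereas the control pools of Il21r and Il27ra lie apart.

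In the IL-1 receptor family, 1 of 5 measured chains rose and none fell, with a median of 0.17. The share called, 20%, was near the 21.1% of all genes. Il18r1 encodes the chain that binds IL-18, a cytokine that drives interferon gamma production in NK and T cells. It stood at 7.66 and 7.53 in the social threat pools, against 7.15 and 7.02 in the control pools. Both social threat pools were above both control pools, and the gap between the groups exceeded that within either. Il18r1 rose by 0.51 (SE 0.09, limma adjusted p = 0.00529), a 1.42-fold higher level, with adjusted p = 0.123 without social threat pool 1. It was read by 1 probe set. Its partner Il18rap, the accessory chain of the same receptor, stood at 9.75 and 9.65 in social threat pools, against 9.71 and 9.56 in control pools and was not called (0.06, SE 0.07). The window before the start site of Il18r1 listed first by RefSeq, shown for comparison with those of the fallen genes, held no match to any of the 6 motifs.
Il18r1, chr1:40465302-40465551, plus strand: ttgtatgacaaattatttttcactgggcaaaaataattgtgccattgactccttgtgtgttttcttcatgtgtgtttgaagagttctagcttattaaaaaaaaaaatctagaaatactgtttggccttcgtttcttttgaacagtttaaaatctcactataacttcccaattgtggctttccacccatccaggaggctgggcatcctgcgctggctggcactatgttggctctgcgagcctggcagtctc
Il1r1, the signalling receptor for IL-1, stood at 5.83 and 5.78 in social threat pools, against 5.81 and 5.84 in control pools, a log2 fold change of -0.02 (95% interval -0.26 to 0.23). Il1rl2, the receptor for IL-36, and Il1rapl1 and Il1rapl2, known as proteins of neuronal synapses, had values between 2.70 and 3.98 in every pool, under the array median. Il1r1, Il1rl2, Il18r1 and Il18rap lie close together on chromosome 1 in RefSeq's GRCm38.p6, and of these 4 neighbours Il18r1 was called. Next to Il1r1 lies Il1r2, the decoy receptor for IL-1 and no member of the set, which fell by 0.20 (SE 0.03, limma adjusted p = 0.000632).

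Of the IL-10 receptor's chains, Il10ra fell and Il10rb was not called. Il10ra encodes the chain that binds IL-10, a cytokine that restrains macrophages and dendritic cells. It stood at 8.71 and 8.70 in the social threat pools, against 9.20 and 9.21 in the control pools. The pools of a group nearly coincided, and Il10ra fell by 0.50 (SE 0.06, limma adjusted p = 0.000432), a 1.41-fold lower level. Its other probe sets lay near or under the array median and were not called (-0.32, SE 0.13 and -0.28, SE 0.18). Il10rb, the chain shared by the receptors for IL-10, IL-22 and lambda interferons, stood at 10.17 and 10.20 in social threat pools, against 10.22 and 10.25 in control pools. Its log2 fold change was -0.05 with a 95% interval from -0.15 to 0.06 and was not called, while a dimmer probe set of Il10rb gave -0.35 (SE 0.11, limma adjusted p = 0.0676). On the mean of each gene's probe sets Il10rb passed the threshold too (-0.20, limma adjusted p = 0.0437), with -0.36 for Il10ra. The difference between the fold changes of Il10ra and Il10rb was not tested. Red pulp macrophage markers fell for 8 of 10 genes in the same arrays (median -0.47). Their summed level was 13.37 to 13.39 in social threat and 13.82 to 13.84 in control. T cell, B cell and conventional dendritic cell markers had medians of -1.003, -1.11 and -0.90. Monocyte markers rose for 3 and fell for 3 of 8 genes, and all 8 immature neutrophil markers rose. The part of any of these cells in the fall of Il10ra was not tested.

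The other 4 chains of the IL-10 and IL-20 receptor family were dim. Il20ra and Il20rb, which form the receptor for IL-19, IL-20 and IL-24 on epithelial cells, gave -0.28 (SE 0.11, limma adjusted p = 0.144) and 0.30 (SE 0.14, limma adjusted p = 0.203). Both had groups that did not overlap, at levels between 3.17 and 4.62 where background cannot be separated. Il22ra1, the IL-22 receptor of epithelia, stood between 2.98 and 3.25 in all pools. Il22ra2, a secreted protein that binds IL-22, stood between 4.49 and 4.63. Neither was called.

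Among the receptors for IL-12, IL-27 and IL-31, Il27ra fell, and the other 3 chains were not called. The share called, 25%, was near the 21.1% of all genes. Il27ra encodes the chain that binds IL-27, a cytokine made by dendritic cells and macrophages that acts on T cells. It stood at 6.35 and 6.32 in the social threat pools, against 6.60 and 6.93 in the control pools. Both social threat pools were lower, but the control pools lay farther apart than the lower of them lay from social threat. Il27ra fell by 0.43 (SE 0.12, limma adjusted p = 0.0432), the call nearest to the threshold. Its adjusted p was 0.114 without control pool 2, where the log2 fold change was -0.27, and 0.225 and 0.265 without social threat pools 1 and 2. Il12rb1, shared by the receptors for IL-12 and IL-23, stood between 3.73 and 3.78 in all pools. Il12rb2, the IL-12 chain induced in type 1 T helper cells, had control pools at 3.77 and 4.30 that enclosed the social threat pools at 3.97 and 4.16. Il31ra, which pairs with the oncostatin M receptor to bind IL-31, gave -0.16 (SE 0.13).

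The receptors for IL-13 were not called. Il13ra1, which pairs with Il4ra on myeloid and non-immune cells, stood at 9.78 and 9.87 in the social threat pools, against 9.81 and 10.03 in the control pools (-0.10, SE 0.07, 95% interval -0.26 to 0.07). It was read by 5 probe sets, and their fold changes ran from -0.14 to 0.00. Without control pool 1 the log2 fold change was -0.20 and passed the threshold (limma adjusted p = 0.0447). Il13ra2, a decoy that binds IL-13, lay between 3.20 and 3.39 in all pools.

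Of 5 IL-17 receptor chains, Il17ra rose and the others were not called, with a median of 0.05. The share called, 20%, was near the 21.1% of all genes. Il17ra is the chain shared by the IL-17 family receptors. It stood at 11.55 and 11.51 in the social threat pools, against 11.25 and 11.32 in the control pools. The groups did not overlap, and the rise was small, 0.24 (SE 0.04, limma adjusted p = 0.0018) or 1.18-fold. Leaving out social threat pool 1 gave an adjusted p of 0.0508 and 0.23 for the fold change. A second, dimmer probe set of Il17ra stood at 10.87 and 10.85 in social threat pools, against 10.52 and 10.81 in control pools, and gave 0.20 (SE 0.08, limma adjusted p = 0.141). Il17rc, which pairs with Il17ra to bind IL-17A and IL-17F, stood between 4.72 and 4.93 in all pools, with a log2 fold change of 0.01 (SE 0.13). Il17re, the receptor for IL-17C, stood at 6.85 and 6.79 in social threat pools, against 6.70 and 6.77 in control pools (0.09, SE 0.10), and its neighbour in the genome is Il17rc. Il17rb, which binds IL-25, and Il17rd, a membrane protein known as Sef that restrains fibroblast growth factor signalling, lay under the array median.

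Il17ra and Il18r1 rose in arrays in which neutrophil genes also moved. Of 6 mature neutrophil markers 5 rose and 1 fell (median 0.35, summed level 15.72 to 15.73 in social threat and 15.45 to 15.46 in control), and all 8 immature neutrophil markers rose (median 3.76, summed level 15.55 in social threat and 14.57 to 14.60 in control). Erythroid markers rose too, for 6 of 8 genes (median 1.59). T and NK cell markers fell for 11 of 11 and 5 of 9 genes (medians -1.003 and -0.48). The part of any of these cells in the rises was not tested.

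**Figure D3:**
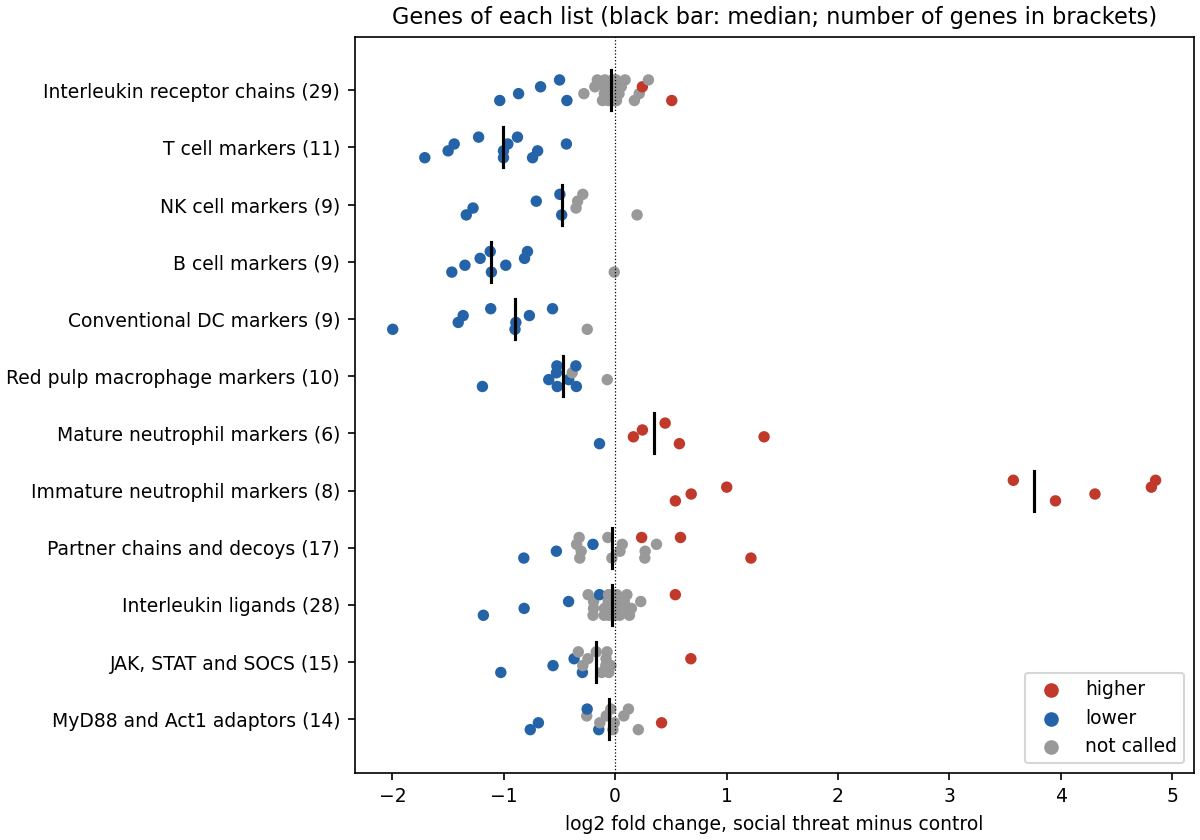
Log2 fold change (social threat minus control, horizontal axis) of the 29 chains and of listed genes, 1 point per gene, coloured by limma call. The median is a black bar. Lists shown are the pathway lists and the T, NK and B cell, conventional dendritic cell, red pulp macrophage and neutrophil markers. The other marker lists are not plotted. The chains centre near 0 with 5 falls and 2 rises, whereas the T and B cell markers lie almost wholly to the left and the immature neutrophil markers to the right.

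Of the 16 members with more than 1 probe set, 11 had all probe sets on the same side of 0. Of all 52 probe sets of the members, 7 fell and 2 rose, or 17.3% called, against 15.8% of all probe sets. The members whose probe sets split in sign were uncalled in every probe set.

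**Figure D4:**
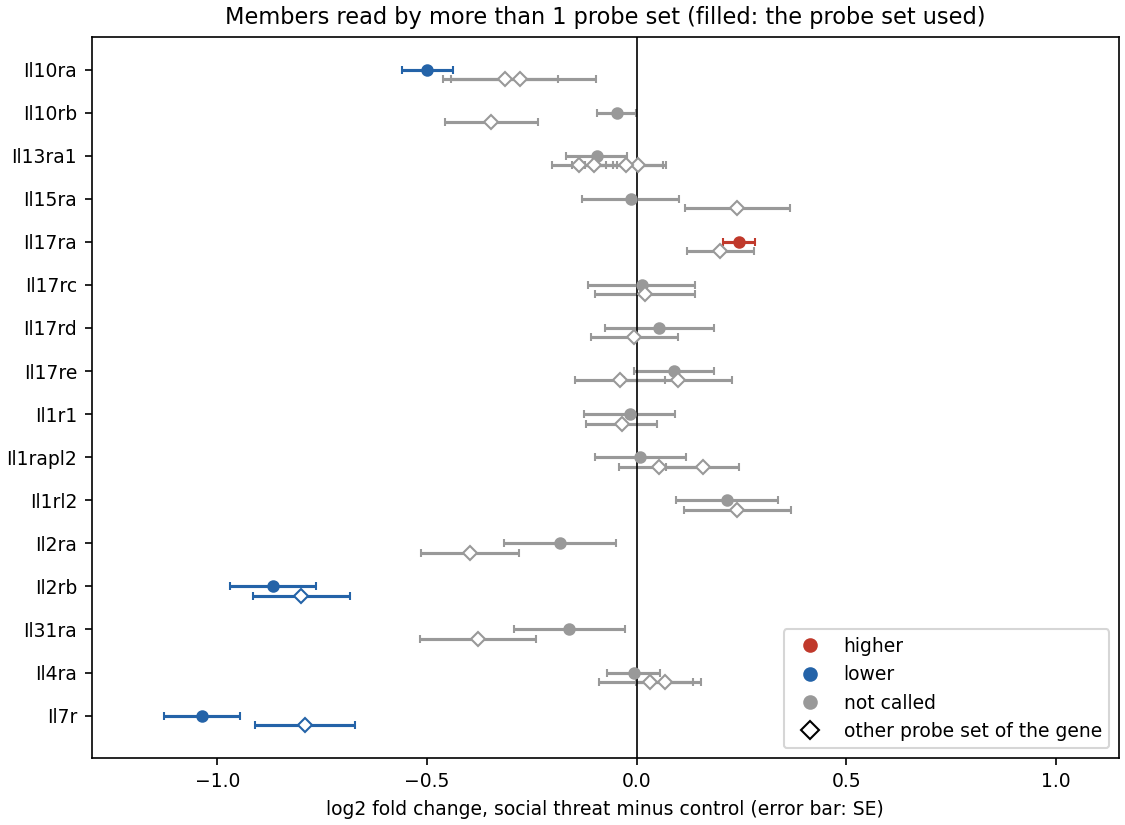
Log2 fold change (social threat minus control, horizontal axis) and SE for the 16 members read by more than 1 probe set; filled circles are the probe set used, open diamonds the others, and colours give the limma call. Both probe sets of Il7r and of Il2rb lie at -0.79 or lower and are called, whereas for Il10ra and Il17ra the brightest probe set is the one called.

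Chains that work with these receptors changed in both directions. Of 17 partner chains and decoys outside the set, 3 rose and 3 fell, with a median of -0.03. Of all genes at or above the median array level 33.3% were called, so the share on this list was near the background. Il6st, which encodes gp130, the signalling chain shared by IL-6, IL-11 and IL-27 receptors, stood at 7.92 and 7.85 in social threat pools, against 8.72 and 8.69 in control pools, and fell by 0.82 (SE 0.07, limma adjusted p = 5.51e-05). Il27ra, its partner for IL-27, fell too. Csf2rb2, a mouse chain for IL-3, and Csf2rb, the chain shared by IL-3, IL-5 and GM-CSF receptors, rose by 0.59 (SE 0.08) and 0.24 (SE 0.04). These are close paralogs, and probes may not separate them fully. Ifnlr1, which pairs with Il10rb to bind lambda interferons, stood at 8.09 and 8.003 in social threat pools, against 6.87 and 6.78 in control pools, and rose by 1.22 (SE 0.09, limma adjusted p = 1.6e-05). Il1rn, the secreted antagonist of Il1r1, fell by 0.53 (SE 0.04).

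Of 28 measured interleukin ligands, 4 fell and 1 rose, with a median of -0.02, and 16 had a mean under the median array level. The share called was near the 21.1% of all genes. Il12b, the p40 subunit of IL-12 and IL-23, stood at 4.65 and 4.12 in social threat pools, against 5.41 and 5.73 in control pools, and fell by 1.18 (SE 0.19). Il15, a ligand of Il2rb, fell by 0.42 (SE 0.07), and Il1b fell by 0.14 (SE 0.03). Il4 fell by 0.82 (SE 0.20), in pools near or under the array median that spread widely within each group. Ebi3, a subunit of IL-27, stood at 10.08 and 10.09 in social threat pools, against 9.57 and 9.53 in control pools. It rose by 0.54 (SE 0.05, limma adjusted p = 8.63e-05), while the IL-27 receptor chains Il27ra and Il6st fell. Il27, the gene of the other subunit, was not among the 28 measured.

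Downstream of the receptors, 4 of 15 JAK, STAT and SOCS genes fell and 1 rose, with a median of -0.17. The share called was near the 33.3% of all genes at or above the median array level. Jak3, the kinase bound to the common gamma chain, stood at 8.30 and 8.29 in social threat pools, against 7.58 and 7.65 in control pools. It rose by 0.68 (SE 0.08, limma adjusted p = 0.000267), while 3 receptors of common gamma chain cytokines fell. Socs2, a feedback inhibitor of cytokine signalling, fell by 1.03 (SE 0.11), Irs2, an adaptor of the IL-4 receptor, by 0.56 (SE 0.11), Stat5a, which acts below the IL-2 and IL-7 receptors, by 0.37 (SE 0.09) and Jak2 by 0.29 (SE 0.06). Jak1 (-0.08, SE 0.04) and Tyk2 (-0.29, SE 0.09), the kinases of the IL-10 receptor, were not called. Of 14 genes of the MyD88 and Act1 branches, 4 fell and 1 rose, with a median of -0.06, again a share near that 33.3%. Traf3ip2, which encodes Act1, the adaptor of IL-17 receptors, stood at 5.90 and 5.86 in social threat pools, against 6.61 and 6.53 in control pools. It fell by 0.69 (SE 0.10, limma adjusted p = 0.00156), while Il17ra rose. Traf5 fell by 0.76 (SE 0.10), Irak2 by 0.25 (SE 0.06) and Nfkbiz by 0.15 (SE 0.04), and Irak3, an inhibitory member of the IRAK family, rose by 0.42 (SE 0.08).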

How the data were processed

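CD11b+ splenocytes were profiled on 4 Affymetrix MOE430 2.0 arrays, 1 per pool of 5 mice, with groups and pool numbers taken from the sample titles. The authors deposited log2 values of each probe set, computed by RMA (per the submitters' processing notes, version not given), and these ran from 2.26 to 14.25. RMA compresses the differences of dim probe sets. Scanner files were not used here, and the number of arrays limits the precision.

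The platform annotation gave 34945 of 45037 probe sets exactly 1 symbol, 932 several and 9160 none. All 45037 probe sets were fitted in R 4.3.3 with limma 3.58.1 (lmFit on 1 group term, coded social threat minus control; eBayes with its mean-variance trend; 2 residual and 7.1 prior degrees of freedom). All tests are two-sided with Benjamini-Hochberg adjustment, and the words rose and fell mark an adjusted p under 0.05. The code was tested on simulated data. Summed levels of marker lists are the log2 of the sum of unlogged values. The p-values rest on the spread between pools of mice, moderated towards the spread typical of probe sets at a similar level.

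All members are accounted for. Members called, or with a mean of at least 8, have every pool's value. Each pathway list has at most 5 genes named, called ones first by size of change, plus Il6st, Csf2rb, Jak1, Jak3 and Tyk2, and Il18rap was named after its values were seen. The members and lists were chosen with earlier results of these data known. Alternatives were fits without the trend, without each pool, with pool number as a block, after quantile normalization, without dim probe sets and on the mean of a gene's probe sets.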

Additional observations from a re-analysis of the deposited data

How the results depend on the processing

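The number of called probe sets was 7099, and it was 4689 without the variance trend, 3171 to 8721 with 1 pool left out, and 4090 of 18193 genes on the mean of each gene's probe sets. Of the chains, 2 rose and 5 fell. The counts were 1 and 3 without the variance trend, where Il21r, Il27ra and Il17ra were not called (adjusted p = 0.054, 0.0886 and 0.124), and 0 to 2 and 3 to 6 with 1 pool left out. A lone pool is then assumed to vary like the other group. Il7r, Il2rb and Il10ra were called under all 9 alternatives. Il27ra was not called after quantile normalization (adjusted p = 0.0683). On the mean of probe sets Il2ra and Il10rb also fell (-0.29 and -0.20, adjusted p = 0.0368 and 0.0437). Leaving out dim probe sets kept all 7 calls. The cause of these shifts was not tested.

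Sign changes occurred for chains that were not called. Il15ra and Il1r1 stood at 0.0102 and 0.00688 after quantile normalization, and Il15ra and Il4ra at 0.113 and 0.0308 on the mean of probe sets. With 1 pool left out, log2 fold changes ran from -0.025 to 0.011 for Il4ra, -0.23 to 0.30 for Il12rb2, -0.091 to 0.115 for Il17rc, -0.0695 to 0.179 for Il17rd, -0.12 to 0.07 for Il9r, -0.091 to 0.062 for Il15ra, -0.082 to 0.099 for Il1rapl2, -0.171 to 0.0445 for Il22ra1, -0.201 to 0.0105 for Il13ra1, -0.239 to 0.011 for Il17rb and -0.042 to 0.009 for Il1r1.

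Same-numbered pools share only a number. Their deviations from the group means correlated at 0.052 over probe sets, and with pool number as a replicate block 8168 probe sets and the same 7 chains were called.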
